A study of Arabidopsis thaliana with 2 samples.

Results

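IBM2, EDM2 and their target RPP7 were followed through the bisulfite data of the ibm1-1 mutant, exon by exon and intron by intron. The 3 genes were taken by locus identifier, IBM2 as AT5G11470, EDM2 as AT5G55390 and RPP7 as AT1G58602, out of 27444 nuclear protein-coding genes. Their 79 exons and introns were set beside the 265990 of all those genes, and 1 kb on either side of each gene was read as its flanks.

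Genes that carry heterochromatin inside an intron need a dedicated complex in Arabidopsis to be transcribed to their full length. IBM2, also known as ASI1 or SG1, combines a bromo-adjacent homology domain with an RNA-recognition motif, and EDM2 is a PHD-finger protein. Both associate with methylated intronic repeats and promote transcripts that run past them. RPP7 encodes a nucleotide-binding leucine-rich repeat receptor for resistance to downy mildew, and a COPIA retrotransposon lies in its first intron. IBM1, the gene mutated here, encodes the histone H3K9 demethylase that keeps CpHpG methylation (H is A, T or C) out of the bodies of transcribed genes, and its own long intron is another target of IBM2 and EDM2. The names RPP7 and AIPP1 to AIPP3 are background knowledge, since the annotation used gives only their locus identifiers.

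The series holds 2 whole-genome bisulfite libraries, 1 from Col-0 ibm1-1 and 1 from Ler-0 ibm1-1. Both came from rosette leaves of plants that were 3 weeks old, had been grown on plates at 21°C under days of 16 h of light followed by 8 h without, and were homozygous for ibm1-1 in the first generation, and 150 ng of genomic DNA entered each library. The Ler-0 line was obtained by repeatedly crossing the Col-0 mutant back to Ler-0 plants, so that it can retain stretches of Col-0 DNA. No wild-type library was analysed here, and a level is therefore that of the mutant and cannot be divided into methylation present in wild type and methylation gained in ibm1-1.

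The Col-0 library held 371653818 calls, a mean of 8.63 per cytosine, with a call at 84.8% of cytosines. The Ler-0 library held 313387873 calls, a mean of 6.58 per cytosine, with a call at 77.1% of cytosines. In the chloroplast, where methylated calls stand for unconverted cytosines, 1.34% and 1.39% of calls were methylated in Col-0 and Ler-0. A methylation level is given as the methylated share of all calls pooled over the cytosines of one sequence context on both strands, with its 95% Wilson interval, and a difference is Ler-0 minus Col-0 in percentage points with its Newcombe 95% interval. As each ecotype has a single library, the ecotypes could not be tested against each other, and these intervals cover counting error only. An exon or intron was compared where at least 4 cytosines of the context had reads and the mean was at least 4 reads per cytosine in both libraries.

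IBM2 lies on the minus strand of chromosome 5 (chr5:3662634-3668214, TAIR10). It has 13 exons, and the whole gene was aligned to Ler-0, where 4 of 5510 comparable bases of the locus differed. EDM2 lies on the same strand and chromosome (chr5:22447937-22454805), has 19 exons, and differed at 13 of 6835 comparable bases. A Ler-0 insertion of 36 bp falls in EDM2 intron 10. At IBM2, 74.6% of the Ler-0-specific cytosines within 100 kb carried reads (91 of 122), and at EDM2 76.5% did (124 of 162), so that the Ler-0 library held Ler-0 DNA at both loci. The level differences at these 2 genes thus compare almost the same sequence in the 2 ecotypes.

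The exon 7 sequence of EDM2 (chr5:22452578-22452679, minus strand, coding) shows what the levels stand for, because it holds no CpG at all. In this and all the following sequences, capitals mark methylated positions. A capital C is a cytosine on the strand shown, and a capital G stands for the cytosine opposite it, with at least 4 reads and a methylation level of at least 50% in the named library. Of its 12 CpHpG cytosines 8 were methylated in Col-0, and the same 8 in Ler-0, so that 1 line serves for both libraries. A position with fewer reads stays in lower case, as do 13 cytosines here.
EDM2 exon 7, Col-0 and Ler-0: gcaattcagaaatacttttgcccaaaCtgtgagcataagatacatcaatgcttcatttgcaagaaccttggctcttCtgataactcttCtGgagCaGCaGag

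The following 150 bases of IBM2 exon 4 (chr5:3665106-3665255, minus strand, coding) show a stretch with more methylated CpHpG cytosines in Ler-0. They were chosen, like the next windows, after their values were seen. Of 19 CpHpG cytosines 5 are in capitals in Col-0 and 13 in Ler-0, while the number of methylated CpG cytosines is 10 of 10 in Col-0 compared with 8 of 10 in Ler-0. The letters printed are those of the Col-0 reference. Those of Ler-0 did not differ at the comparable bases of any window shown for both, where an unresolved A or T was not compared.
IBM2 exon 4, Col-0: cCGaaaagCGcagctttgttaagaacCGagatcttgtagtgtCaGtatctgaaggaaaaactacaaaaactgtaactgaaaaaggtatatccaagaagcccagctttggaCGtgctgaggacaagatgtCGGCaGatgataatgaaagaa
IBM2 exon 4, Ler-0: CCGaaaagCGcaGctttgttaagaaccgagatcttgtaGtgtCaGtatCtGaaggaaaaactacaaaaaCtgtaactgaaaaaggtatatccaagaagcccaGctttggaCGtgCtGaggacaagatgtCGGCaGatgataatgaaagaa

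A window in IBM2 exon 2 (chr5:3666761-3666910, minus strand) goes in the opposite direction. Of its 12 CpHpG cytosines 8 were methylated in Col-0 but 0 in Ler-0, where 19 cytosines of the window had under 4 reads against 2 in Col-0.
IBM2 exon 2, Col-0: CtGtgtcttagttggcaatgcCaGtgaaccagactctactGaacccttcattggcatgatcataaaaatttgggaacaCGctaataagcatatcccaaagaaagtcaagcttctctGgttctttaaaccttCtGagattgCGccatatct
IBM2 exon 2, Ler-0: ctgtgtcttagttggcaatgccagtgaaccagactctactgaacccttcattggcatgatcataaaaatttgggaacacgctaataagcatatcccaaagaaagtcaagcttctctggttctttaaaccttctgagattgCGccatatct

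A window in EDM2 intron 13 (chr5:22450499-22450648, minus strand) shows CpHpG methylation in Ler-0 beside CpG sites without methylation. Of 22 CpHpG cytosines 5 were methylated in Col-0 against 18 in Ler-0, and neither of the 2 CpG cytosines reached 50% in either library.
EDM2 intron 13, Col-0: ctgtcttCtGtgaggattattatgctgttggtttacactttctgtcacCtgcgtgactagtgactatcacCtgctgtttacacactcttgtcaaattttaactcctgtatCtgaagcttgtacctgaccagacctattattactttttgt
EDM2 intron 13, Ler-0: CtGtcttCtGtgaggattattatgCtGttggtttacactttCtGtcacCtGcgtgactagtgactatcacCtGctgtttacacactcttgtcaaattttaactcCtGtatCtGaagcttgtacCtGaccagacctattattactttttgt

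Over the whole body of IBM2, CpHpG methylation was higher in Ler-0 than in Col-0. The level was 28.6% in Col-0 (27.2–30.1%, 3740 calls) and 47.5% in Ler-0 (45.8–49.1%, 3544 calls), a difference of 18.8 points (16.6–21.0). CpG methylation differed less, with 55.9% in Col-0 and 63.2% in Ler-0 (7.32 points, 4.31–10.3). CpHpH methylation was low in both, 3.28% in Col-0 and 6.19% in Ler-0 (2.91 points, 2.37–3.46), though above the chloroplast share.

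The 3 CpHpG subcontexts of IBM2 were all higher in Ler-0. CpApG was methylated at 31.2% in Col-0 against 49.9% in Ler-0, and CpTpG at 27.6% and 47.2%. The external cytosine of CpCpG was lower than both in either library, at 21.5% in Col-0 and 36.2% in Ler-0 (14.7 points, 8.11–21.3).

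EDM2 had nearly the same CpG level in the 2 libraries, 61.7% in Col-0 and 61.2% in Ler-0 (-0.522 points, -2.99 to 1.94). Its CpHpG level was 36.5% in Col-0 (35.2–37.7%, 5895 calls) and 43.3% in Ler-0 (42.0–44.7%, 5299 calls), a difference of 6.89 points (5.08–8.70). CpHpH was at 3.52% and 4.54% (1.01 points, 0.623–1.41).

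Within EDM2 the subcontexts did not differ alike. CpApG was at 36.8% in Col-0 and 47.2% in Ler-0 (10.4 points, 7.69–13.1) and CpTpG at 40.2% and 45.1% (4.92 points, 2.11–7.72). The external cytosine of CpCpG stood at 21.9% and 21.5% (-0.369 points, -4.80 to 4.11).

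Both genes stood high among the 21439 genes with enough reads in both libraries, whose median CpHpG level was 2.69% (Col-0) or 2.95% (Ler-0). Above IBM2 there were 1120 genes in Col-0 (5.22%) and 363 in Ler-0 (1.69%). Above EDM2 there were 514 genes (2.40%) in Col-0, 604 (2.82%) in Ler-0. The median CpG level of the same genes was 9.69% and 8.08%, and the median CpHpG difference between the libraries was 0.303 points.

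**Figure D1:**
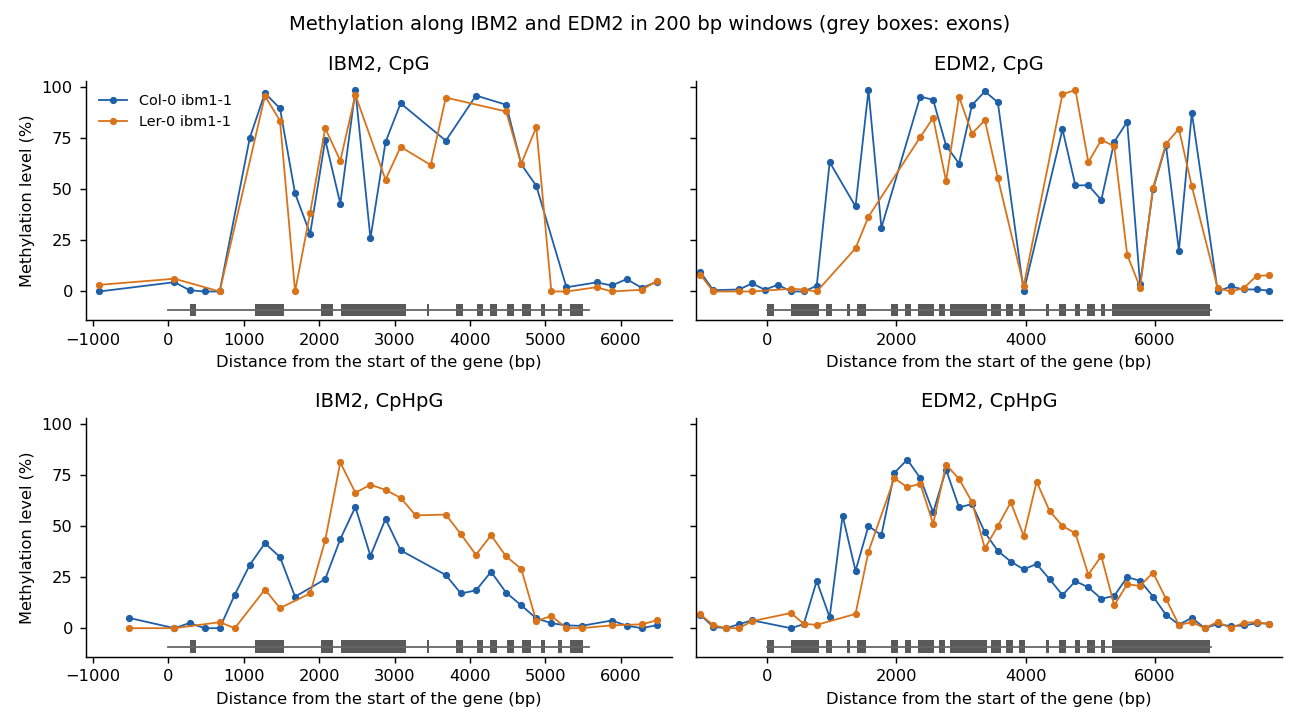
Methylation level in percent (vertical axis) in 200 bp windows along IBM2 and EDM2 with their 1 kb flanks, against the distance in bp from the start of the gene in the direction of transcription, with Col-0 ibm1-1 in blue and Ler-0 ibm1-1 in orange, grey boxes as exons, and lines joining the windows with 4 or more cytosines and on average 4 or more reads each. The flanks stay low, with the highest window at 9.52% (CpG of EDM2 in Col-0, at -1032 bp). The CpHpG levels of the 2 libraries part in the middle of IBM2 and in the 3′ part of EDM2.

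The exons and introns showed where along the genes the levels parted. In CpHpG, 42 of the 79 could be compared (15 of IBM2, 24 of EDM2 and 3 of RPP7), and 13 of them were at least 20 points higher in Ler-0, where 9.34% of 174101 exons and introns of all genes were. Of the 13, 5 belonged to IBM2 and 8 to EDM2. At least 20 points higher in Col-0 were 2 of the 42, 1 in each of these genes, against 2.11% of all. The median CpHpG difference was 6.0 points over the compared exons and introns of IBM2, 4.6 over those of EDM2 and 0.529 over all.

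In IBM2 the 5 were exons 3, 4, 6 and 7 and intron 5. Exon 4, the longest exon of IBM2 with 857 bp, was at 44.6% in Col-0 (1592 calls) and 67.2% in Ler-0 (1674 calls), 22.6 points apart (19.3–25.9). Exon 6 was at 32.1% (28 calls) and 79.5% (39 calls), and it holds no CpG. Exon 3 was at 27.7% and 54.3%, exon 7 at 19.4% and 41.8%, and intron 5 at 20.4% and 49.5% (29.0 points, 21.5–35.9). Intron 5 also had more CpG methylation in Ler-0, 68.4% against 91.2% (22.8 points, 14.1–31.7), which intron 2 did not, with 33.0% and 32.7%.

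The 5′ end of IBM2 behaved in the other direction. Exon 2, which holds the start of the coding sequence, was at 40.8% CpHpG in Col-0 (34.2–47.7%, 201 calls) and 15.6% in Ler-0 (10.4–22.6%, 135 calls), a difference of -25.2 points (-33.9 to -15.6). Its CpG level was high in both, 91.4% and 86.5%. Intron 1 was at 20% CpHpG in Col-0 and 0.758% in Ler-0 (-19.2 points, -24.7 to -13.6), just short of the limit of 20 points, and its CpG level was 27.8% and 3.74%, at a depth too low in Ler-0 to be compared. Thus Col-0 had methylated CpHpG further towards the 5′ end, and from exon 3 to exon 10 each compared exon and intron had the higher value in Ler-0, although the intervals of the difference included 0 in intron 6 and exon 10.

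The 3′ end of IBM2 was low in CpHpG in both libraries. Exon 10 was at 10.1% in Col-0 against 15% in Ler-0, and intron 10, intron 11, intron 12 and exon 13 lay between 0% and 6.82% in both. CpG did not follow the same border, as exon 10 had 83.2% and 92.6% CpG methylation and exon 9 91.5% and 88.6%. Exon 11 had 44.1% in Col-0 (59 calls) and 100% in Ler-0 (40 calls), and was the only one of 22 compared exons and introns of the 3 genes with CpG at least 40 points higher in Ler-0, where 5.41% of 131694 were. None of the 22 was at least 40 points higher in Col-0, against 4.73% of all.

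In EDM2 a nearly unmethylated 5′ end up to exon 2 was followed, after introns 2 to 4, by a block of high CpHpG methylation that both ecotypes shared. Exon 2, with most of its 442 bp coding, was at 1.99% in Col-0 and 2.55% in Ler-0. From intron 5 to exon 10 the levels of the compared exons and introns were above 50% in both libraries, except in intron 8 with 28.7% and 32.8%. Intron 5 was at 77.5% in Col-0 and 82.6% in Ler-0, exon 7 at 86.6% (81.5–90.5%, 217 calls) and 78.4% (71.6–84.0%, 167 calls), exon 8 at 69.3% and 64.8%, and exon 10 at 58.5% and 58.9%. Exon 7 had the highest CpHpG level of the EDM2 exons and introns compared in Col-0, intron 5 that in Ler-0.

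Neither exon 7 nor intron 7 of EDM2 contains a CpG, and intron 7 was nonetheless at 81.8% CpHpG in Col-0 (148 calls) and 62.7% in Ler-0 (102 calls), -19.0 points apart (-30.1 to -7.80). Exon 7 also holds no CpCpG with reads. Its CpApG cytosines were methylated at 77.5% in Col-0 against 80.3% in Ler-0, and its CpTpG cytosines at 93.0% and 77.2%.

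The 8 exons and introns of EDM2 with higher CpHpG in Ler-0 lay between intron 11 and exon 17, in the 3′ part of the gene. Not all of that stretch stood higher in Ler-0. In intron 16, CpTpG was at 29.2% in Col-0 (24 calls) and 6.25% in Ler-0 (16 calls). CpApG there was at 36.4% (11 calls) and 66.7% (6 calls). Intron 13 was at 27.5% in Col-0 (23.5–31.8%, 444 calls) and 65.6% in Ler-0 (61.7–69.3%, 605 calls), a difference of 38.1 points (32.3–43.5). Its 4 CpG cytosines were at 0% in Col-0 and 4.48% in Ler-0. Exon 13 was at 17.5% (40 calls) and 58.3% (24 calls), and its CpG at 0% and 4.76%. CpHpG methylation was thus high in Ler-0 at these 2 neighbours while CpG methylation was near 0 in both libraries.

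Downstream of them, exon 15 and intron 15 stood higher in Ler-0 in CpG and CpHpG alike. Exon 15 was at 16.3% CpHpG in Col-0 and 51.4% in Ler-0 (35.1 points, 24.3–44.7), with CpG at 77.3% and 95.9% (18.6 points, 12.1–25.4). Intron 15 was at 23.0% and 49.2% CpHpG, with CpG at 67% and 99.1%. Intron 14 was at 20.2% and 51.5% CpHpG. The others of the 8 were intron 11 (39.6% and 69.2%), exon 12 (28.3% and 50.9%) and exon 17 (10% and 34.4%). CpG did not go with CpHpG at all of them, since exon 17 had 52.0% CpG methylation in Col-0 against 55.1% in Ler-0 (3.10 points, -16.0 to 21.9). The 2 CpG cytosines of exon 11, the neighbour of intron 11, went the other way, with 92.0% in Col-0 against 0% in Ler-0.

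At the 5′ end EDM2, like IBM2, had stretches with more CpHpG methylation in Col-0. Intron 2 was at 57.9% in Col-0 (19 calls) and 5.0% in Ler-0 (20 calls), -52.9 points apart (-72.3 to -24.4). Intron 3 (40.3% and 6.06%) and exon 4 (76.9% and 14.3%, 2 CpHpG cytosines) held too few reads or cytosines to be compared. The same held for exon 3, between intron 2 and intron 3, whose 3.03% in Col-0 and 10% in Ler-0 rest on 33 and 10 calls and do not share the direction. Exon 2 on the other side was low in both, and so was intron 4 with 0% and 3.03%, so that the higher Col-0 levels were not continuous. Exon 5 had lower CpG methylation in Ler-0, 98.1% against 62.9% (-35.3 points, -51.8 to -19.1).

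Exon 19, the last exon of EDM2 with 1527 bp, carried CpG methylation without much CpHpG. CpG was at 60.5% in Col-0 against 60.3% in Ler-0, and CpHpG at 11.8% (1787 calls) and 14.7% (1482 calls). The flanks of both genes were low. Pooled over a whole 1 kb flank, the highest level of any context at IBM2 and EDM2 was 5.75%. It was the CpG of the downstream flank of EDM2 in Ler-0, which was at 0.846% in Col-0.

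**Figure D2:**
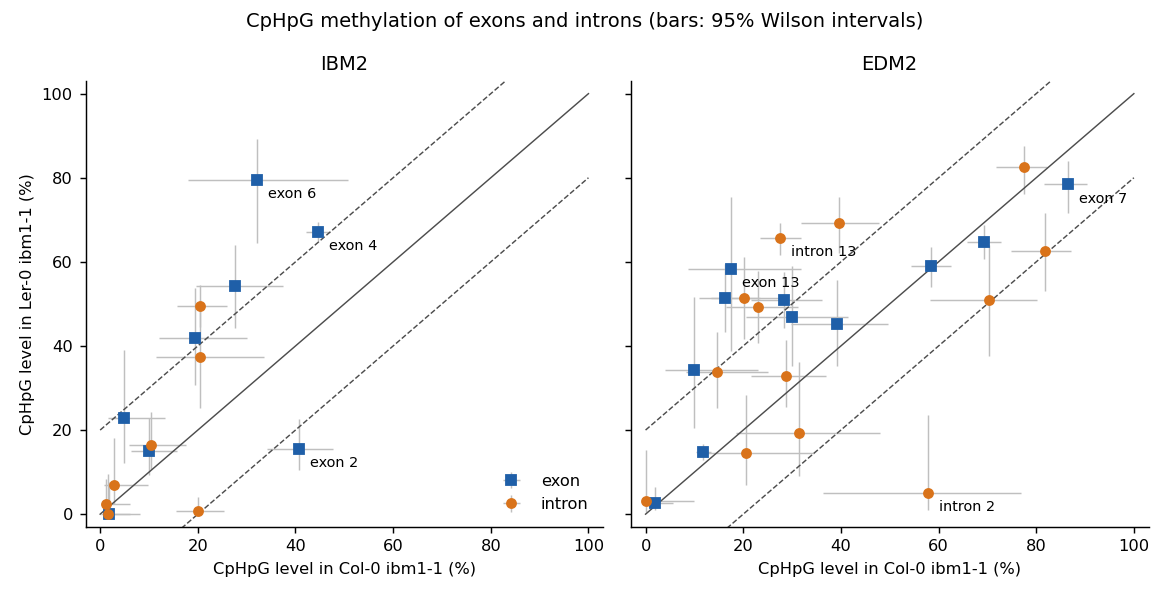
CpHpG methylation level of each compared exon (blue squares) and intron (orange circles) of IBM2 and EDM2, in Col-0 ibm1-1 (horizontal axis, percent) and Ler-0 ibm1-1 (vertical axis, percent), with 95% Wilson intervals as grey bars, equal levels on the solid line and differences of 20 points on the dashed lines. Above the upper dashed line lie 5 of IBM2 and 8 of EDM2, and below the lower one lie IBM2 exon 2 and EDM2 intron 2.

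The introns and exons at 50% CpHpG or more were mostly those of EDM2. Among introns with enough reads in Col-0, 6 of 29 reached that level (0 of 8 in IBM2, 4 of 14 in EDM2 and 2 of 7 in RPP7), where 4.30% of 77043 introns did. In Ler-0, 7 of 23 did (1 of 9 in IBM2, 6 of 13 in EDM2 and 0 of 1 in RPP7), against 9.20% of 69323. Among exons the counts were 4 of 30 in Col-0 (0 of IBM2, 3 of EDM2 and 1 of RPP7) against 2.94% of all, and 10 of 22 in Ler-0 (3 of IBM2 and 7 of EDM2) against 6.20%. In Col-0, IBM2 thus had neither an intron nor an exon at that level.

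CpHpH methylation did not reach the limit of 10 points anywhere. Of 49 compared exons and introns of the 3 genes, 0 were at least 10 points higher in Ler-0 (0.249% of 198371) and 0 in Col-0 (0.221%). EDM2 exon 14 came closest to it, with 2.52% in Col-0 and 10.8% in Ler-0 (8.27 points, 2.06–14.7). IBM2 exon 4 was at 6.96% and 11.4% (4.44 points, 3.10–5.78).

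Some single CpG cytosines were opposite in the 2 libraries at both genes. Of the 95 CpG cytosines of IBM2 with at least 5 reads in both libraries, 50 were at 50% or more in both and 31 below it in both. At 7 the level was at least 75% in Col-0 and at most 25% in Ler-0 (7.37%), and at 6 the reverse (6.32%). Over the 1700476 such cytosines of all gene bodies these shares were 4.61% and 4.22%. In EDM2, with 176 such cytosines, 76 were high and 56 low in both, 24 were at least 75% in Col-0 and at most 25% in Ler-0 (13.6%), and 16 the reverse (9.09%).

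Most CpG cytosines of all gene bodies were below 50% in both libraries and cannot be opposite. Of the cytosines at 50% or more in at least 1 library, a count added after seeing the data, the 2 opposite states made up 10.9% and 9.38% of 64 in IBM2 and 20% and 13.3% of 120 in EDM2. The same shares were 17.2% and 15.7% of 456603 over all gene bodies. By this measure the shares of IBM2 lay below those of all genes and the shares of EDM2 near them.

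CpCpG sites allow the internal cytosine, which is also a CpG, to be read beside the external cytosine, which is a CpHpG. A site was used with at least 5 reads on each cytosine. The internal cytosine counted as methylated at 50% or more and the external one at 25% or more. The limit for the external cytosine is lower than that for capitals. An external cytosine can therefore count as methylated and still be printed in lower case. The following site in EDM2 exon 19 (chr5:22448486-22448526, minus strand) and another in EDM2 exon 8 (chr5:22452287-22452327) had an internal cytosine methylated in 1 library only. They are shown because they had the largest internal difference in each direction among EDM2 sites with at least 15 reads on each cytosine, and they lie in the middle of the 41 bases.
EDM2 CpCpG site in exon 19, Col-0: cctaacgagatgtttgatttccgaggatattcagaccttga
EDM2 CpCpG site in exon 19, Ler-0: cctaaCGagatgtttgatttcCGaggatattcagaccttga
EDM2 CpCpG site in exon 8, Col-0: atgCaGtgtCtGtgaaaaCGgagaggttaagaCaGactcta
EDM2 CpCpG site in exon 8, Ler-0: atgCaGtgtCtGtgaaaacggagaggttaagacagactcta

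At the exon 19 site the internal cytosine had 0 of 30 methylated calls in Col-0 compared with 29 of 30 in Ler-0, and the external one 0 of 30 and 0 of 29. At the exon 8 site the internal cytosine had 22 of 27 methylated calls in Col-0 compared with 0 of 22 in Ler-0, and the external one 6 of 27 and 0 of 22, which is 22.2% and below the limit of 25%. By that limit the external cytosine counted as unmethylated in both libraries at both sites.

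The same comparison at IBM2 gave a site in intron 7 (chr5:3663996-3664036, minus strand) that was unmethylated in Col-0 and doubly methylated in Ler-0. The internal cytosine had 0 of 21 methylated calls in Col-0 compared with 19 of 19 in Ler-0, and the external one 0 of 24 and 5 of 20.
IBM2 CpCpG site in intron 7, Col-0: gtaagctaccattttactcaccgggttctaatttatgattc
IBM2 CpCpG site in intron 7, Ler-0: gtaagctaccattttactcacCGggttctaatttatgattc

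The site with the largest difference in the other direction lies in the IBM2 exon 4 window shown above, at position 3665230. Its internal cytosine had 22 of 26 methylated calls in Col-0 compared with 4 of 25 in Ler-0, and its external cytosine 8 of 25 and 1 of 25. Here both cytosines were lower in Ler-0 within an exon whose CpHpG level as a whole was higher there.

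Double methylation, written mCpmCpG, was found at 10 of 27 sites of IBM2 in Col-0 (37.0%, 21.5–55.8%) and at 11 of 20 in Ler-0 (55.0%, 34.2–74.2%). In EDM2 the counts were 13 of 45 (28.9%, 17.7–43.4%) and 14 of 41 (34.1%, 21.6–49.5%). Over the CpCpG sites of all gene bodies the shares were 8.15% of 462903 in Col-0 compared with 9.33% of 399901 in Ler-0. These shares include sites with an unmethylated internal cytosine. Over all gene bodies in Col-0, 37718 sites were doubly methylated and 67060 had only the internal cytosine methylated. In Ler-0 these counts were 37312 and 52947. The intervals of the 2 libraries overlapped at both genes.

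Sites with only the internal cytosine methylated (CpmCpG) numbered 5 in IBM2 in Col-0 against 2 in Ler-0, and 14 and 10 in EDM2, against 14.5% and 13.2% of all sites. Most of those of EDM2 lay in its last exon. Of 19 sites of exon 19 with enough reads in Col-0, 9 were CpmCpG and 1 was mCpmCpG, and of 17 in Ler-0, 8 and 1. Exons 8 and 10 were the reverse. Doubly methylated were 4 of 5 sites of exon 8 in each library, and of the 4 sites of exon 10 all 4 in Col-0 but 3 in Ler-0. No site of IBM2 or EDM2 had only its external cytosine methylated in either library.

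The 18 IBM2 sites and 40 EDM2 sites with enough reads in both libraries were then followed one by one. Where the internal cytosine was unmethylated in both libraries (5 sites of IBM2 and 12 of EDM2), the external one was methylated in neither. Where the internal cytosine was methylated in both (9 and 19 sites), the external one was methylated in both at 5 and 10, in Ler-0 only at 2 and 3, in Col-0 only at 1 and 0, and in neither at 1 and 6. Where the internal cytosine was methylated in Col-0 only (2 and 5 sites), the external one was methylated in Col-0 only at 1 and 1 and otherwise in neither. Where it was methylated in Ler-0 only (2 and 4 sites), the external one was methylated in Ler-0 only at 2 and 1 and otherwise in neither. This is a description of few sites, and no test was made on it.

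**Figure D3:**
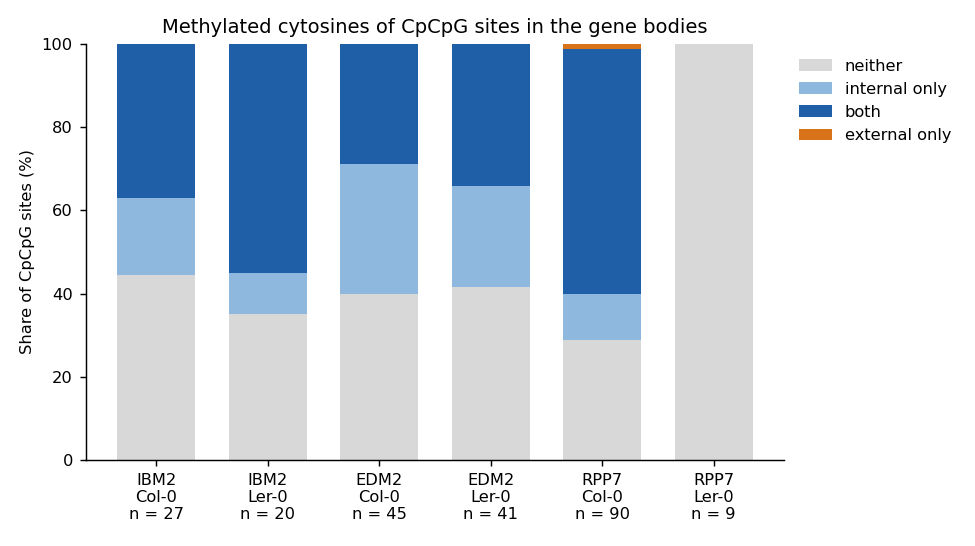
Share of CpCpG sites in percent (vertical axis) with neither, only the internal, both or only the external cytosine methylated, as stacked bars for each gene and ibm1-1 library, with n the number of sites where both cytosines had 5 or more reads. Both cytosines were methylated at 37.0% and 55.0% of IBM2 sites, 28.9% and 34.1% of EDM2 sites and 58.9% of RPP7 sites in Col-0, and at 0 of 9 RPP7 sites in Ler-0. The RPP7 bars cover different sites, since the 9 in Ler-0 all lie in exon 6. All 10 exon 6 sites with enough reads in Col-0 were unmethylated on both cytosines too.

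RPP7 lies on the plus strand of chromosome 1 (chr1:21746354-21766048) and is 19695 bp long. It has 9 exons, and its coding sequence is confined to exons 4 to 6, so that introns 1 to 3 interrupt the 5′ untranslated region of the annotated transcript. Intron 1 is 7384 bp long, and only 3 of 119273 introns of all genes are longer. It contains the annotated pseudogene AT1G58561, of 4572 bp (chr1:21748675-21753246). Intron 2 has 4420 bp and intron 3 has 1500 bp.

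The 200 bases of the pseudogene with most methylated CpHpG cytosines (chr1:21749534-21749733, plus strand) show its methylation in Col-0 at the densest. They do not stand for intron 1 as a whole. In capitals are 34 of 36 CpHpG cytosines, 6 of 6 CpG cytosines and 4 of 51 CpHpH cytosines.
RPP7 intron 1, Col-0: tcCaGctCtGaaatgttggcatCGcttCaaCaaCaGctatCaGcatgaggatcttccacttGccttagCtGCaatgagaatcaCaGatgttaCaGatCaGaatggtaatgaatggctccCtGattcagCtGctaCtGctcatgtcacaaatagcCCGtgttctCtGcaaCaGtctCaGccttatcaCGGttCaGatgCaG

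The densely methylated part of RPP7 in Col-0 ran from intron 1 to intron 3. Beyond it, the highest CpG levels within the gene were 51.9% in exon 5 and 15% in exon 9. Exon 1 was at 1.79% CpG, and intron 1 at 90.9% CpG (90.2–91.5%), 76.7% CpHpG (76.0–77.3%, 14714 calls) and 11.5% CpHpH (11.2–11.8%). The pseudogene within it was at 95.2% CpG, 79.2% CpHpG and 11.7% CpHpH. The 2175 bp of the intron before the pseudogene were at 83.5%, 62.2% and 11%, and the 637 bp after it at 96.0%, 76.8% and 9.13%, so that the methylation was not limited to the pseudogene.

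The subcontexts of intron 1 were all high. CpApG was at 77.5%, CpTpG at 79.1% and the external cytosine of CpCpG at 59.9%. CpCpG was thus again the lowest of the 3, as in IBM2 and EDM2.

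Further along, CpHpG fell while CpG stayed high. Exon 2 was at 89.1% CpG and 61.9% CpHpG, intron 2 at 91.7% and 52.4%, exon 3 at 87.9% and 31.5%, and intron 3 at 81.6% and 12.8%, which rests on 117 CpHpG calls at fewer than 4 reads per cytosine. CpHpH fell likewise, from 10.5% in exon 2 to 7.22% in intron 2 and 2.32% in intron 3. Exon 4, the first coding exon, was at 0.270% CpG and 4.44% CpHpG.

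The coding exons were low in non-CpG methylation in Col-0. Exon 6, with 2403 bp the longest exon of RPP7, was at 5.55% CpG and 1.31% CpHpG in Col-0. Exon 5 had 51.9% CpG methylation (54 calls) with 4.11% CpHpG. The 3′ untranslated exons 7, 8 and 9 were at 1.82%, 4.0% and 2.99% CpHpG, and exon 9 at 15% CpG. Beyond the gene, the 1 kb downstream flank was at 80% CpG, 43.0% CpHpG and 41.7% CpHpH, at 2.48 reads per cytosine. Its CpHpH level exceeded that of intron 1. The upstream flank was at 1.17%, 2.30% and 1.25%.

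Depth differed along RPP7 in Col-0, with 22.5 reads per cytosine in intron 1 and 26.8 in the pseudogene. It was 3.66 in intron 2, 2.69 in intron 3 and 8.65 in exon 6, and 8.63 over the whole library. Whether reads of related sequences elsewhere were placed in intron 1 was not tested. Because of its depth, intron 1 weighs heavily in the gene-body average. With each cytosine of at least 5 reads weighted alike, the gene-body difference between the libraries, which is described further on, was -65.3 rather than -73.5 points in CpG and -53.2 rather than -64.5 in CpHpG.

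Over the whole gene, RPP7 in Col-0 was at 74.4% CpG, 65.7% CpHpG and 9.01% CpHpH, and 24 of the 21439 genes had a higher CpHpG level (0.112%). Both RPP7 introns of at least 1000 bp that had enough reads were at 50% CpHpG or more, against 5.93% of 624 such introns of all genes in Col-0, and intron 1 was 1 of 3 such introns at 75% or more. In Ler-0, where 3.41% of 469 such introns reached 50%, no RPP7 intron of that length was aligned in the order of the genes with reads.

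Among CpCpG sites of RPP7 in Col-0, 53 of 90 were doubly methylated (58.9%, 48.6–68.5%), 10 had only the internal cytosine methylated and 1 only the external one. Intron 1 held 47 of the 53 among its 58 sites with enough reads, and intron 2 held 5 among 6. All 10 sites of exon 6 with enough reads were unmethylated on both cytosines.

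**Figure D4:**
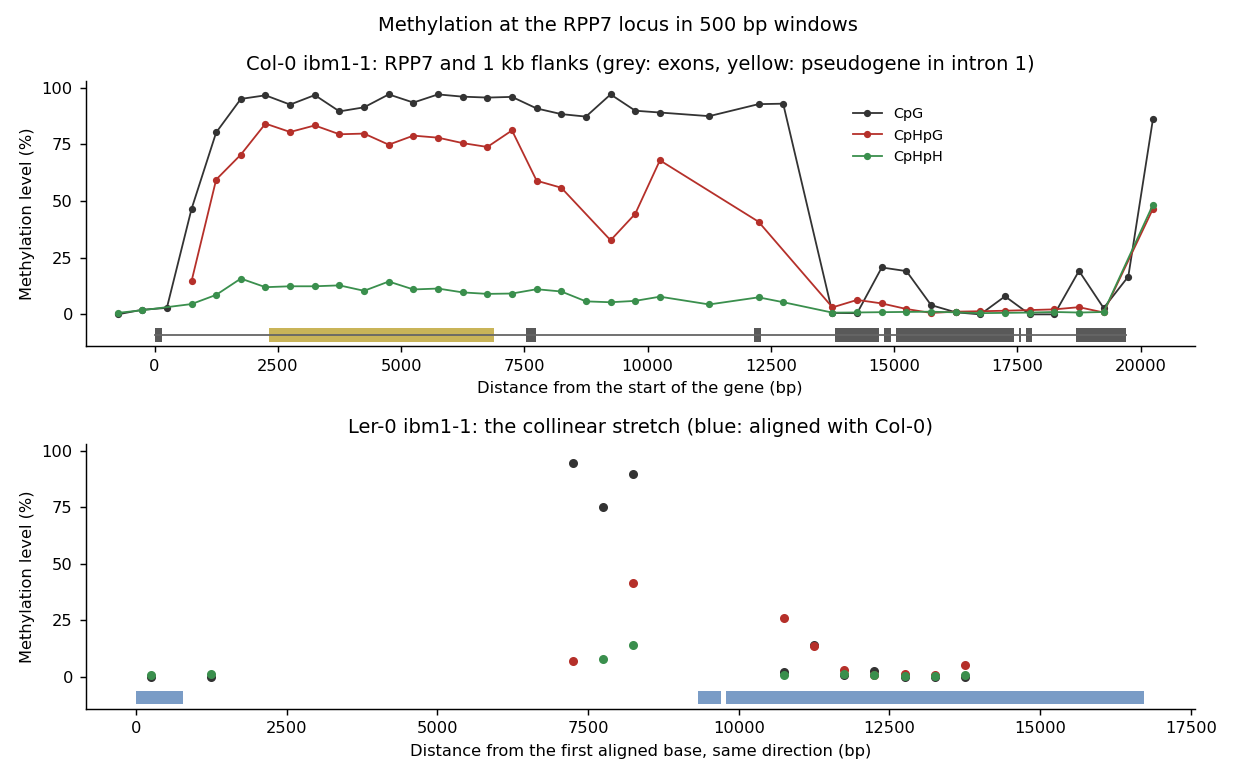
Methylation level in percent (vertical axes) in 500 bp windows with 4 or more cytosines and on average 4 or more reads each, for CpG (black), CpHpG (red) and CpHpH (green), along RPP7 in Col-0 ibm1-1 (top, distance in bp from the start of the gene, grey boxes as exons and the yellow box as the pseudogene) and along the collinear Ler-0 stretch (bottom, distance in bp from the first aligned base, blue bars as sequence aligned to Col-0). In Col-0 the windows above 50% CpG lie before exon 4, except 1 at 20250 bp, beyond the gene, with 86.2% CpG, 46.6% CpHpG and 48.4% CpHpH, and after exon 4 the windows within the gene reach 20.7% CpG. In Ler-0 those above 50% CpG lie at 7250 to 8250 bp, between the first and the second blue bar, and the window at 10750 bp has 26.0% CpHpG.

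The RPP7 locus of Ler-0 could be compared with Col-0 only in part. By 500 bp tiles, 2000 of its 19695 bp were aligned (10.2%), from within exon 6 to intron 7 (chr1:21762001-21764000). There, CpG was at 3.49% in Col-0 and 0.832% in Ler-0 (-2.65 points, -4.21 to -0.994), CpHpG at 1.32% and 1.25% (-0.0755 points, -1.23 to 1.24) and CpHpH at 0.752% and 0.913% (0.161 points, -0.188 to 0.533). The part of exon 6 placed by tiles was therefore low in non-CpG methylation in both ecotypes.

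The gene-body difference of RPP7 set the whole gene in Col-0 against those 2000 bp in Ler-0 and came to -73.5 points in CpG, -64.5 in CpHpG and -8.09 in CpHpH. It compares different bases, since the introns that carry the methylation in Col-0 have no aligned Ler-0 base with reads at the collinear place. The Ler-0 sequence that stands there without alignment does have reads and is described below. It is not a difference in methylation of the same sequence.

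An alignment of the locus with blastn, chosen after seeing the data, extended the view. It placed 776 bp at the upstream flank (97.89% identity), 380 bp around exon 2 (93.44%) and 6938 bp from the end of intron 3 to the downstream flank (96.27%) on 1 Ler-0 contig. Another Ler-0 copy matched the last of these at 94.2%, so that reads of related genes cannot be told apart with certainty. Over the aligned bases of the gene, CpHpG was at 5.19% in Col-0 and 6.5% in Ler-0 (1.31 points, -0.388 to 3.24), and CpG at 10.1% and 2.10% (-8.00 points, -9.62 to -6.14).

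Exon 5, a coding exon that the tiles did not cover, differed in this alignment in opposite directions in the 2 contexts. Its CpG level was 51.9% in Col-0 (54 calls), while 1 of 51 calls was methylated in Ler-0, -49.9 points apart (-62.7 to -34.4). Its CpHpG level was 4.11% in Col-0 (73 calls) against 33.3% in Ler-0 (63 calls), a difference of 29.2 points (16.5–41.8). Both differences exceed the limits of 40 and 20 points. The introns beside it held too few cytosines to be compared, and their CpHpG values were 11.7% and 18.2% in intron 4 and 1.14% and 23.8% in intron 5. Exon 4 had 4.44% and 0%, and exon 6 had 1.31% and 3.12%, so that low CpHpG in both ecotypes did not extend to the whole coding part.

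Between those blocks the 2 genomes hold different sequence. In place of 7686 bp in Col-0 (chr1:21746130-21753815), which include exon 1 and nearly all of intron 1 with the pseudogene, Ler-0 has 8551 bp that did not align. That Ler-0 sequence was methylated in part. Its pooled levels were 75.5% CpG (72.4–78.4%, 800 calls), 23.4% CpHpG (19.6–27.7%, 418 calls) and 7.03% CpHpH (5.76–8.56%, 1294 calls). Only 32.8%, 27.6% and 15.9% of its cytosines of these contexts had reads. The 500 bp windows at 7250, 7750 and 8250 bp from the first aligned base were at 94.7%, 75% and 89.8% CpG, while the window at 1250 bp was at 0% (125 calls). In place of the 5915 bp with most of intron 2, exon 3 and nearly all of intron 3 (chr1:21754196-21760110), Ler-0 has 84 bp without a call.

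Sequence like RPP7 intron 2 was present elsewhere in the Ler-0 genome. Tiles covering 3458 bases of it (chr1:21754501-21758492) were placed on another Ler-0 contig, most of which corresponds to chromosome 3, and were left out because their neighbours lay elsewhere. Read at these bases, CpG was at 91.9% in Col-0 (618 calls) and 79.1% in Ler-0 (516 calls), -12.8 points apart (-17.0 to -8.76). CpHpG was at 49.1% (430 calls) against 28.2% (273 calls), -20.9 points apart (-27.7 to -13.5), and CpHpH at 6.14% against 5.92%. The Ler-0 copy was thus methylated as well, and since its place differs, it cannot be taken as the RPP7 allele. With these tiles kept, the gene-body differences were -33.0 points in CpG, -56.4 in CpHpG and -6.73 in CpHpH.

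Ler-0 DNA was present around RPP7, where 81.3% of 278 Ler-0-specific cytosines carried reads. The RPP7 CpCpG sites with enough reads in Ler-0 were 9, all in exon 6, and none had a methylated cytosine, which leaves an upper limit of 29.9% for double methylation.

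The partners of IBM2 and EDM2 and 2 other targets were read in the same way. AIPP1, an RNA-recognition protein that bridges the complex, had an unmethylated body, with CpHpG at 2.26% in Col-0 and 1.34% in Ler-0. AIPP2, a PHD-finger protein, was at 21.0% and 25.7% (4.72 points, 2.90–6.54). AIPP3, a bromo-adjacent homology protein, was at 22.1% in Col-0 and 8.93% in Ler-0 (-13.2 points, -15.3 to -11.1), with CpG at 51.1% and 13.1%. CPL2, a phosphatase of the RNA polymerase II carboxy-terminal domain, was at 5.97% and 36.2% (30.2 points, 28.4–32.0), with CpG at 24.0% and 43.6%. CPL2 intron 3 reached 81.6% in Ler-0 and 17.2% in Col-0. Of the partners, CPL2 thus stood much higher in Ler-0 and AIPP3 lower.

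The targets IBM1 and AT3G05410 differed in form. IBM1 was at 19.8% CpHpG in Col-0 and 32.3% in Ler-0 (12.5 points, 10.8–14.3), and its longest intron, intron 8 with 1474 bp, at 25.3% and 32.9% (7.59 points, 2.37–12.7). AT3G05410 resembled RPP7 in Col-0, where its intron 2 of 5748 bp was at 94.1% CpG, 79.2% CpHpG and 22.2% CpHpH, and 17.4% of the gene was aligned to Ler-0. Over those aligned bases CpHpG was at 2.07% and 3.36%. Near IBM1, AT3G05410 and AIPP2, only 4.08%, 6.60% and 7.24% of Ler-0-specific cytosines were read in the Ler-0 library, although cytosines common to both ecotypes there had 6.08 to 6.35 reads on average, so that these 3 genes on chromosome 3 cannot be taken as Ler-0 alleles.

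Exons and introns at 50% CpHpG or more were also counted in the 6 listed genes, out of those with enough reads. In Col-0 they were 1 of 11 exons and 1 of 8 introns of AIPP2, 1 of 7 introns of AIPP3 and 1 of 1 of AT3G05410. Over all genes, 2.94% of exons and 4.30% of introns were in Col-0. In Ler-0 they were 2 of 11 exons and 3 of 13 introns of CPL2, and 2 of 14 exons and 1 of 10 introns of IBM1. AIPP2 had 1 of 11 exons and 1 of 8 introns there, and over all genes 6.20% and 9.20% were. The other listed genes had none in the library concerned. EDM2 had higher counts than any of the 6, with 3 of 12 exons and 4 of 14 introns in Col-0. In Ler-0 it had 7 of 12 and 6 of 13, but EDM2 also has more exons and introns than any of them.

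**Figure D5:**
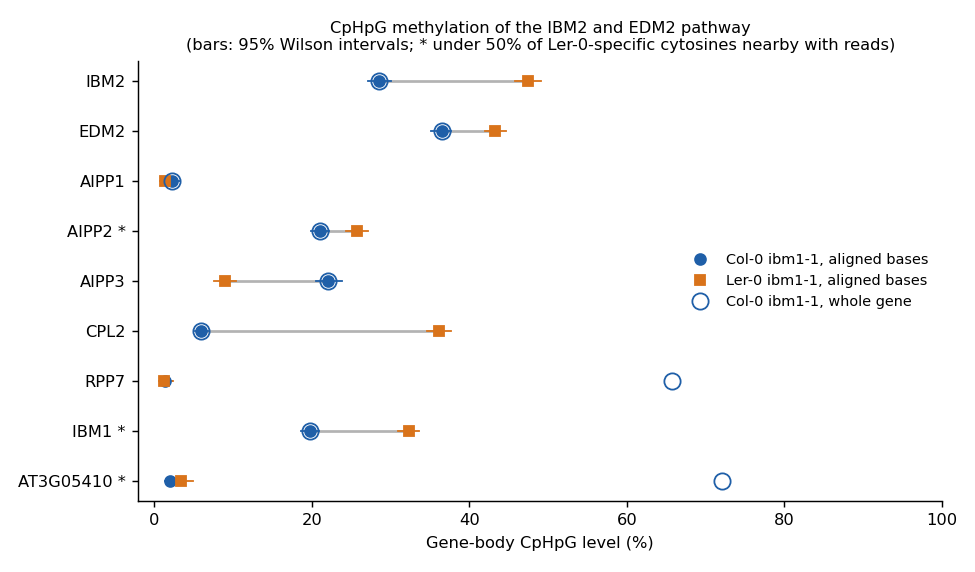
Gene-body CpHpG level in percent (horizontal axis) of the 3 genes and the 6 listed genes in Col-0 ibm1-1 (blue circles) and Ler-0 ibm1-1 (orange squares) at aligned bases, with 95% Wilson intervals, the Col-0 level of the whole gene as open circles, and an asterisk where under 50% of Ler-0-specific cytosines nearby had reads. RPP7 and AT3G05410 have whole-gene levels of 65.7% and 72.1% in Col-0 but levels below 5% at the bases that tiles aligned in order.

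The genes with the most similar methylation were found by the Euclidean distance over 6 gene-body levels, the 3 contexts in the 2 libraries. For IBM2 they were AT5G16680 (distance 2.61 points), DDB2 (2.69) and AT3G48060 (2.78). DDB2, which takes part in the recognition of DNA damaged by ultraviolet light, was at 30.7% CpHpG in Col-0 and 46.5% in Ler-0. For EDM2 they were AT5G62970 (2.76), NET1B (3.01) and AT5G01950 (3.17), and AT5G62970 was at 36.1% and 44.3%. For RPP7 they were RPP4 (8.12), another receptor gene for downy mildew resistance, AT3G05410 (15.2) and AT5G17165 (16.1), with 26.0%, 17.4% and 34.1% of their bases aligned. For these 3 as for RPP7, a Ler-0 level covers a part of the gene only.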

How the data were processed

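The authors aligned bisulfite reads to TAIR10 (Col-0) or to a Ler-0 assembly, collapsed duplicates and deposited raw counts of methylated and unmethylated calls for every cytosine. The submitters' processing notes name Trimmomatic and Bismark, with versions not given in the sources used here. Exons and reference sequence came from the RefSeq copy of TAIR10, which matched the Col-0 cytosines at every base compared.

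The Ler-0 sequence was rebuilt from the positions and trinucleotides of its cytosines, with unresolved A and T as 1 symbol. Tiles of 500 bp were placed with bwa 0.7.19 (mapping quality and score gap of at least 20, at least 400 bp aligned) and kept where contig and strand matched most tiles within 50000 bp. Loci were also aligned with blastn 2.17.0 (at least 150 bp and 80% identity). Of a gene's transcripts, that with the longest coding sequence was used. Exons and introns were called at 40 (CpG), 20 (CpHpG) or 10 (CpHpH) points.

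The genes named are the 3 members, 6 listed partners and targets, and the 3 most alike genes of each member with at least 50 CpHpG cytosines. Members and lists were chosen with earlier results of these data known. The steps were tested on simulated data, where 100.0% of 990564 bases placed were right. Of 88 simulated windows of 500 bp raised by 30 points 95.5% were called, and of 1783 unchanged ones 0.224%. Many exons and introns are shorter and hold fewer calls, so these shares cannot be taken as theirs. PCR reads carry no molecular identifiers, so intervals cover counting error only. Calculations used Python 3.11.15, numpy 2.4.6 and pandas 2.3.3, with minimap2 2.31 as an alternative aligner.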

Additional observations from a re-analysis of the deposited data

How the results depend on the processing

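Of 136 alternative values, 99 stayed within the interval or within 1.5 times the count of the value reported, 36 moved and 1 reversed, a change of sign being counted as reversed only where the reported difference exceeded the limit for a call. IBM2 and EDM2 were aligned in full, so the settings on alignment could hardly change their gene-body differences. Those settings add to the 99 but say little about how far these 2 genes depend on processing. With 1 library per ecotype no replicate could be left out. No paired analysis was possible because each ecotype has 1 library. Restricting Col-0 to aligned bases, the blastn alignment and tiles kept in any order were chosen after seeing the data.

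The RPP7 differences depend on which bases are compared. In CpG (-73.5 points) they became -74.5 over cytosines with at least 5 reads, -65.3 as a mean of single-cytosine levels, -2.72 at positions of the same strand and context, -2.65 at aligned bases, -8.00 with blastn and -33.0 with tiles in any order. In CpHpG (-64.5) the same 6 settings gave -65.4, -53.2, -0.110, -0.0755, 1.31 (reversed) and -56.4, no minimum mapping quality gave -62.7 and shifted tiles gave -62.9. In CpHpH (-8.09) the settings from the second on gave -6.72, 0.190, 0.161, -0.354 and -6.73, with the sign changed in 0.190 and 0.161 from a difference below the limit of 10 points. For IBM2, the mean of single-cytosine levels gave 14.4 points in CpHpG and 2.34 in CpHpH. No alternative moved an EDM2 gene-body difference, but the settings on alignment could hardly do so in a gene aligned in full.

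With limits of 60, 30 and 15 points, CpG calls higher in Ler-0 became 0, CpHpG calls 5, and CpHpG calls higher in Col-0 1. With 20, 10 and 5 points, CpG calls became 3 in Ler-0 and 1 in Col-0, CpHpG calls higher in Col-0 6, and CpHpH calls higher in Ler-0 5. With a mean of at least 8 reads, CpG calls higher in Ler-0 and CpHpG calls higher in Col-0 both became 0, so that IBM2 exon 2 and EDM2 intron 2 rest on modest depth. With the external cytosine at 50% or more, doubly methylated CpCpG fell to 18.5% (Col-0) and 30% (Ler-0) in IBM2, 14.6% in EDM2 in Ler-0 and 42.2% in RPP7 in Col-0, and with at least 10 reads the RPP7 share was 71.2%. Introns at 25% CpHpG or more were 12 in Col-0, 13 in Ler-0. The cause of these changes was not tested beyond the change of bases, limits or reads that each setting makes.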
